A study of Homo sapiens with 6 samples.

Results

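The genes described here encode ADAM proteases and their relatives, the ADAMTS-like proteins and collagen XXVI. They were taken by a rule on the gene symbol, which was set with earlier results of these data known. It takes every named array gene whose symbol is COL with a chain number, a laminin chain, ADAM with a number, or ADAMTS including ADAMTSL. By this rule 26 of the 14884 named genes were taken, namely 20 ADAM genes, 5 ADAMTSL genes and COL26A1, each with 1 probe set. RefSeq lists 102 human symbols of this form, and the other 76 (43 collagen chains, 12 laminin chains, 19 ADAMTS proteases and 2 ADAM genes) had no named probe set in the annotation used and were not analysed here.

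RNA was hybridised to 6 Affymetrix Human Gene 2.0 ST arrays, 3 from NHE3kd cells (replicates 2, 3 and 10) and 3 from Ctrl cells (replicates 1, 4 and 9). Both groups were SK-CO15 cells, an established human colonic adenocarcinoma line, carrying a lentivirus. After transduction they were sorted for the fluorescent marker EGFP of the virus, selected in puromycin and kept as mixed populations. They were grown to confluence in serum-containing medium without further treatment. In NHE3kd cells the virus carried pooled shRNAs to SLC9A3, which encodes the sodium-proton exchanger NHE3, and in Ctrl cells a scrambled shRNA. The comparison asks what differs in transcript abundance between these populations. Depletion of the exchanger cannot be told apart from other differences between them. SLC9A3 had no named probe set, so the depletion itself was not checked here. Every value is a log2 difference from the mean of the 3 Ctrl arrays. A value of -1 is thus a halving of the Ctrl signal, and the expression level of a gene, and with it whether it is expressed at all in these cells, cannot be read from these numbers. For the same reason the colonic origin of the line could not be checked as a level. Of 18 colonic epithelial markers 13 were measured, with 8 fold changes below 0 and a median of -0.055. Among all 14884 named genes 7490 were below 0, 9.96% were higher and past the test, and 32.5% had an unadjusted p under 0.05. VIL1, which encodes the brush border protein villin, was past the test, 0.77 higher in NHE3kd cells, while KRT20, a keratin of differentiated colonocytes, at -0.86 (adjusted p 0.0814), and TFF3, ESRP1 and CLDN7, at -0.29, -0.26 and -0.25, had an unadjusted p under 0.05 and did not pass. Nothing in the labels says that replicate arrays stem from separate cultures. The p-values therefore measure the spread between these arrays, which may be technical.

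ADAM proteins are membrane-anchored proteins with a metalloprotease and a disintegrin domain. Those with an intact zinc-binding motif in the protease domain cut other membrane proteins close to the cell surface and release their outer parts, as in the release of growth factors of the EGF family, of TNF and of its receptors, and in the first cut of Notch. In the intestinal epithelium ADAM10 and ADAM17 are best known for these cuts in Notch and EGF receptor signalling. The other ADAM proteins lack the motif and act in adhesion, and several are found mainly in the testis. ADAMTS-like proteins resemble the secreted ADAMTS proteases but have no protease domain, and several bind fibrillin microfibrils.

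ADAM17 and ADAM9, a pair of catalytically active sheddases, were lower in NHE3kd cells, and ADAM22, a neuronal adhesion receptor without protease activity, was higher. These 3 of the 26 genes passed the test (limma, a linear model whose variances are moderated across probe sets, with a Benjamini-Hochberg adjusted p under 0.05 over all probe sets), or 11.5% of them, while 14.5% of all named genes did. The 2 lower genes made up 7.69% of the 26, against 4.51% lower among all named genes, and the 1 higher gene 3.85%, against 9.96% higher. ADAM17 and ADAM9 also changed at least 1.5-fold, and 7.12% of all named genes had both a call and such a change. Before adjustment 7 of the 26 had p under 0.05 (26.9%, against 32.5% of named genes), and in 6 the arrays of the groups did not overlap (23.1%, against 35.8%). The median fold change of the 26 genes was -0.028 on the log2 scale and that of all named genes -0.00082, and the median size of change was 0.10 over the 26 genes and 0.12 over all named genes. As a family these genes were thus called no more often than named genes at large, and the results turn on single members.

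**Figure D1:**
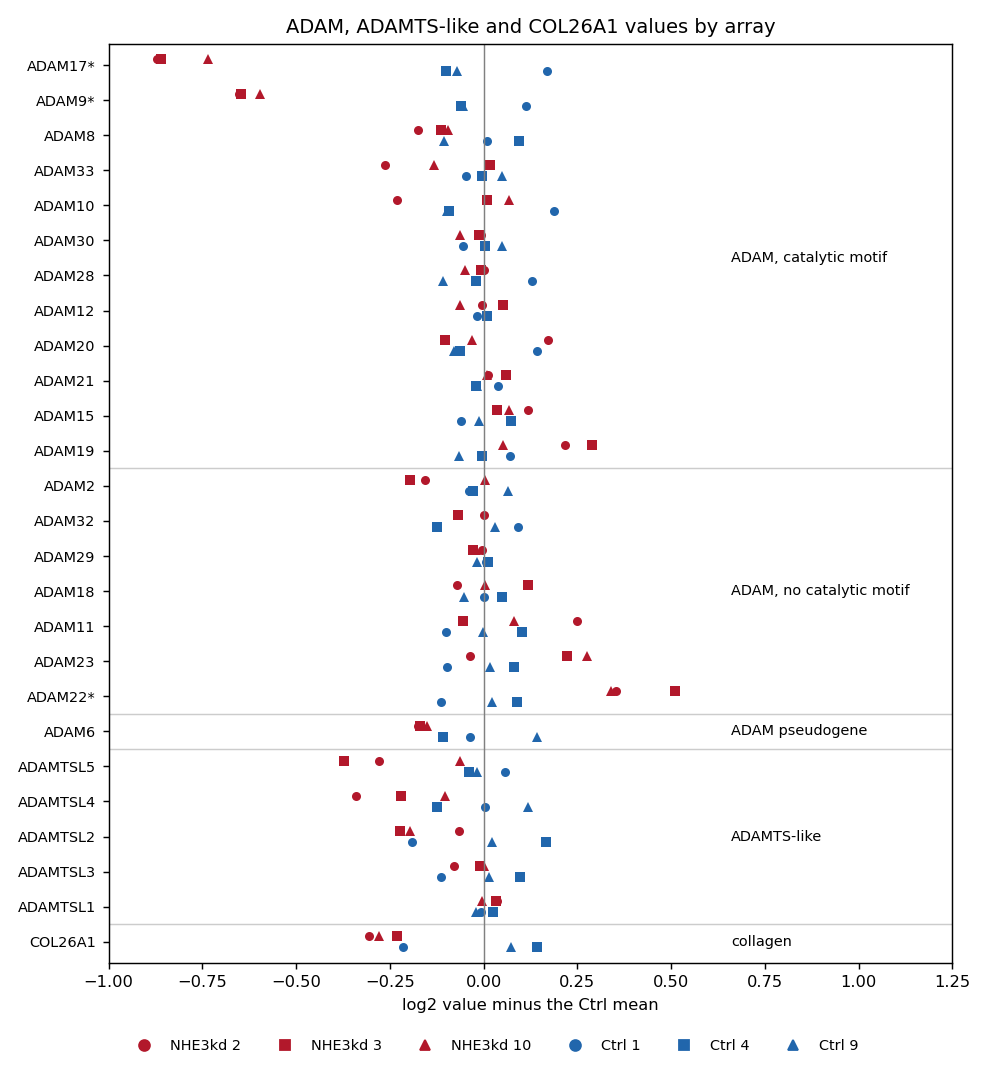
Values of the 26 genes on each array, as log2 differences from the Ctrl mean (horizontal axis), with NHE3kd arrays in red above Ctrl arrays in blue and 1 marker shape per replicate. An asterisk marks the 3 genes past the test: ADAM17 and ADAM9 lay between -0.87 and -0.60 on the NHE3kd arrays, ADAM22 between 0.34 and 0.51, and most other genes lay near 0 in both groups.

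ADAM17, the TNF-alpha converting enzyme, which also releases EGF receptor ligands and the interleukin-6 receptor, had log2 values of -0.87, -0.86 and -0.73 on NHE3kd arrays 2, 3 and 10, against 0.17, -0.10 and -0.070 on Ctrl arrays 1, 4 and 9. All NHE3kd arrays lay below all Ctrl arrays, by a gap wider than the range within either group. The log2 fold change was -0.82 ± 0.085 (SE, 3 arrays each), a signal at 56.6% of Ctrl, with an adjusted p of 0.00669. Its size was larger than that of 96.1% of named genes. The call held in each of the 6 fits that left out 1 array (adjusted p from 0.00988 to 0.0372), and it was lost after quantile normalization (0.134), by Welch's test (0.149) and, narrowly, by a t-test with unmoderated variances (0.0527). In that order these 3 settings called 279, 2 and 430 of all named genes, where the fit reported called 2154. In RNA of a whole culture, fewer cells of a kind and less RNA per cell cannot be told apart.

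ADAM9, a widely expressed sheddase, had -0.65, -0.65 and -0.60 on the NHE3kd arrays, against 0.11, -0.059 and -0.054 on the Ctrl arrays. The 3 NHE3kd values were the closest to each other of any called gene among the 26, and again all lay below the Ctrl arrays. ADAM9 was lower by 1.55-fold in NHE3kd cells (log2 fold change -0.63 ± 0.057, adjusted p 0.0048), with the smallest p of the 26 genes. It stayed past the threshold without any 1 array (adjusted p from 0.00923 to 0.0291) and with an unmoderated t-test (0.043), but not with Welch's test (0.162) or after quantile normalization (0.0953).

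ADAM10, the closest relative of ADAM17 in structure and the main Notch and cadherin sheddase, gave a different picture. Its values were -0.23, 0.010 and 0.069 on the NHE3kd arrays, against 0.19, -0.091 and -0.098 on the Ctrl arrays. The groups overlapped, with the lowest value on NHE3kd 2 and the highest on Ctrl 1. The fold change of -0.051 did not pass (adjusted p 0.884), and its 95% interval of -0.33 to 0.23 did not include the -0.82 of ADAM17. On the same array ADAM17 minus ADAM10 was -0.64, -0.87 and -0.80 in NHE3kd cells, against -0.018, -0.0092 and 0.027 in Ctrl cells. In the Ctrl cells both genes were thus high on array 1 and low on arrays 4 and 9 to nearly the same extent, and in the NHE3kd cells they parted on every array. This pair was picked once its values were known, so no test is given for the difference.

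The sequences at the starts of ADAM17, ADAM10 and ADAM22 are shown because the first 2 are structural relatives that differed in fold change and the third moved in the other direction. Each is the window of 300 bases around the RefSeq start of the gene (GRCh38.p14), read 5′ to 3′ on the strand of the gene, ADAM17 at chr2:9555781-9556080 and ADAM10 at chr15:58749658-58749957, both on the minus strand, and ADAM22 at chr7:87934001-87934300 on the plus strand. Capitals mark matches on either strand to 5 motifs, which were the GC box written GGGCGG, the CCAAT box, the E-box written CACGTG, the TATA box written TATAAA and the AP-1 site written TGANTCA.
ADAM17: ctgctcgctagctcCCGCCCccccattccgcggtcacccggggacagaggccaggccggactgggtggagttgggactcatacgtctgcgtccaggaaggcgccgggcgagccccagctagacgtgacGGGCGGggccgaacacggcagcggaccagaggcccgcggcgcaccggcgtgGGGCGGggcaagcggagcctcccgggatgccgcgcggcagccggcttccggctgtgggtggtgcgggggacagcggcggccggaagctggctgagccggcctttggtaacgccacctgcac
ADAM10: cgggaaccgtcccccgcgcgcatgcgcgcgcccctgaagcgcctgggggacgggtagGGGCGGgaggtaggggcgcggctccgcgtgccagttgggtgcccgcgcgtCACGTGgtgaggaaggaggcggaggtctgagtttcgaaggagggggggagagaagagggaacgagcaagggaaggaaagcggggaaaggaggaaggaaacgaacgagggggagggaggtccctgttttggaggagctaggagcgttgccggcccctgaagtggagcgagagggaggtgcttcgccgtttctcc
ADAM22: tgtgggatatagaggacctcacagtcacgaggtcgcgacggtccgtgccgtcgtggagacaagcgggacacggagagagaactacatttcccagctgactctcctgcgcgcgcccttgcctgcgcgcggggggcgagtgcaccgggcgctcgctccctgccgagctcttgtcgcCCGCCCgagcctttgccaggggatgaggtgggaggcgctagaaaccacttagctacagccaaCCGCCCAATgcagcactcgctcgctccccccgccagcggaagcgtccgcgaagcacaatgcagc
ADAM17 held 3 GC boxes and no other motif, ADAM10 held 1 GC box and 1 E-box, and ADAM22 held 2 GC boxes, of which 1 overlaps its CCAAT box. The GC content was 74.7%, 68.0% and 66.3% in that order, with 36, 30 and 32 CpG dinucleotides.

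Such windows were read for 18 of the 26 genes. Those without a window include ADAM9 and the other genes on chromosome 8, which were left out. A GC box was found in 11 of the 18 (61.1%) and in 44.6% of 27305 promoters of the same length, a CCAAT box in 5 (27.8%, against 35.7%), a TATA box in 2 (11.1%, against 12%) and an E-box in 2 (11.1%, against 7.43%). The AP-1 site, present in 7.76% of promoters, was in none of the 18 windows, which says only that these letters do not occur there. The windows were rich in GC, with a median of 71.5% (37.3% to 83.0%) against 58.3% over all promoters, and a median of 29.5 CpG against 14. Among the testis genes with a window, ADAM20, ADAM21 and ADAM29 had 37.3%, 40.0% and 40.7% GC with 0, 1 and 4 CpG, and ADAM30 had 53.7% GC with 18 CpG.

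ADAM22, which in neurons binds the secreted LGI1 protein, had 0.35, 0.51 and 0.34 on the NHE3kd arrays, against -0.11, 0.090 and 0.023 on the Ctrl arrays. The groups did not overlap, and NHE3kd 3 was the highest array. The log2 fold change was 0.40 ± 0.073, or 1.32-fold, with an adjusted p of 0.0295. This call was lost without any 1 of the 6 arrays (adjusted p from 0.0573 to 0.0881), and the direction was kept (0.35 to 0.45). ADAM23 and ADAM11, the other LGI-binding ADAM proteins, had fold changes of 0.15 and 0.091 and did not pass (adjusted p 0.467 and 0.696). ADAM23 had -0.035, 0.22 and 0.28 on the NHE3kd arrays, against -0.098, 0.081 and 0.017 on the Ctrl arrays, and overlapped between the groups through NHE3kd 2.

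**Figure D2:**
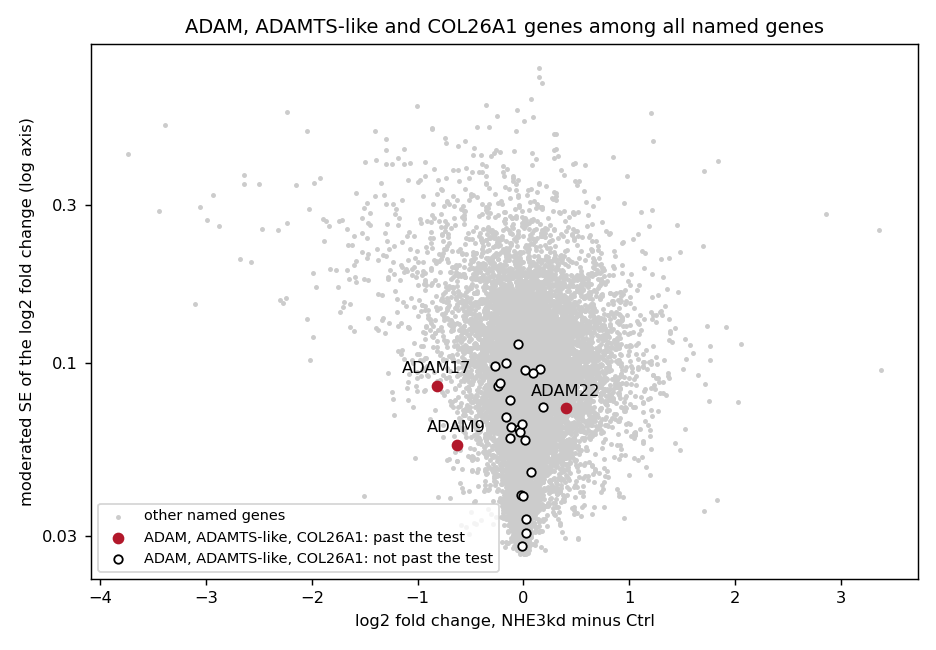
Log2 fold change of NHE3kd minus Ctrl (horizontal axis) and its moderated standard error (vertical axis, log scale) for the named genes, with the 26 genes as larger circles, filled where the test was passed. ADAM17 at -0.82 and ADAM9 at -0.63 lie toward the left of the cloud at standard errors of 0.085 and 0.057, ADAM22 at 0.40 lies within it, and the 23 others lie between -0.27 and 0.19.

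Among the 12 ADAM proteases with a catalytic motif, ADAM9 and ADAM17 were lower and the other 10 did not pass, with a median of -0.023 over all 12. ADAM19, which sheds neuregulin, had the next smallest p, with 0.22, 0.29 and 0.051 on the NHE3kd arrays against 0.072, -0.0051 and -0.067 on the Ctrl arrays. NHE3kd 10 lay below Ctrl 1, and the fold change of 0.19 ± 0.073 did not pass (adjusted p 0.226). ADAM8, best known from leukocytes, had -0.17, -0.11 and -0.095 on the NHE3kd arrays against 0.0092, 0.096 and -0.10 on the Ctrl arrays, which overlapped through Ctrl 9 (fold change -0.13, adjusted p 0.305). ADAM33, a gene of airway smooth muscle, had -0.26, 0.018 and -0.13 on the NHE3kd arrays against -0.046, -0.0044 and 0.050 on the Ctrl arrays, and the NHE3kd arrays differed among themselves more than the groups did (fold change -0.13, adjusted p 0.462). ADAM15, with an integrin-binding motif in its disintegrin domain, and ADAM12, of regenerating muscle, had fold changes of 0.074 and -0.0048. The interval of ADAM12 was narrow, from -0.10 to 0.094. ADAM28, first described in lymphocytes, was at -0.018 (adjusted p 0.934).

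The 7 measured ADAM genes without the motif had a median of 0.018, and ADAM22 was the one past the test. ADAM2, the beta subunit of the sperm protein fertilin, had -0.16, -0.20 and 0.0031 on the NHE3kd arrays against -0.039, -0.027 and 0.066 on the Ctrl arrays, with overlap through NHE3kd 10 (fold change -0.12, adjusted p 0.399). The 7 ADAM genes known mainly from the testis, with or without the motif (ADAM2, ADAM18, ADAM20, ADAM21, ADAM29, ADAM30 and ADAM32), spanned -0.12 to 0.026. None of these 7 passed in limma or in the other tests run, and none had an unadjusted p under 0.05, where 32.5% of all named genes had one. Their standard errors reached from 0.028 to 0.095, and the largest, at ADAM20, came with an interval of -0.22 to 0.25. ADAM20 and ADAM21 are close relatives in sequence, and whether their probes tell them apart was not tested. ADAM6, a transcribed pseudogene on chromosome 14 in human, had -0.18, -0.17 and -0.15 on the NHE3kd arrays against -0.037, -0.11 and 0.14 on the Ctrl arrays, without overlap and without passing (fold change -0.16, adjusted p 0.25).

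On chromosome 8 ADAM9 lies near ADAM32, ADAM18 and ADAM2, and none of these passed, with fold changes of -0.045, 0.018 and -0.12. ADAM9 minus ADAM32 on the same array was -0.65, -0.58 and -0.53 in NHE3kd cells, against 0.021, 0.063 and -0.084 in Ctrl cells. Among the 3 nearest measured genes on either side of ADAM9 and of ADAM17, the smallest adjusted p was 0.0828 (FGFR1, near ADAM9) and 0.146 (IAH1, near ADAM17). TM2D2, next to ADAM9, was at -0.38 (adjusted p 0.153), and GRHL1, next to ADAM17, at -0.80 with a standard error of 0.27 (adjusted p 0.16). At ADAM22 the neighbour SRI, encoding the calcium-binding protein sorcin, was higher by 0.41 (adjusted p 0.0221), and DBF4 on its other side had 0.46 (adjusted p 0.0649). These neighbours were taken by position and the pairs within the family after the values were known, and no test of the differences is given.

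**Figure D3:**
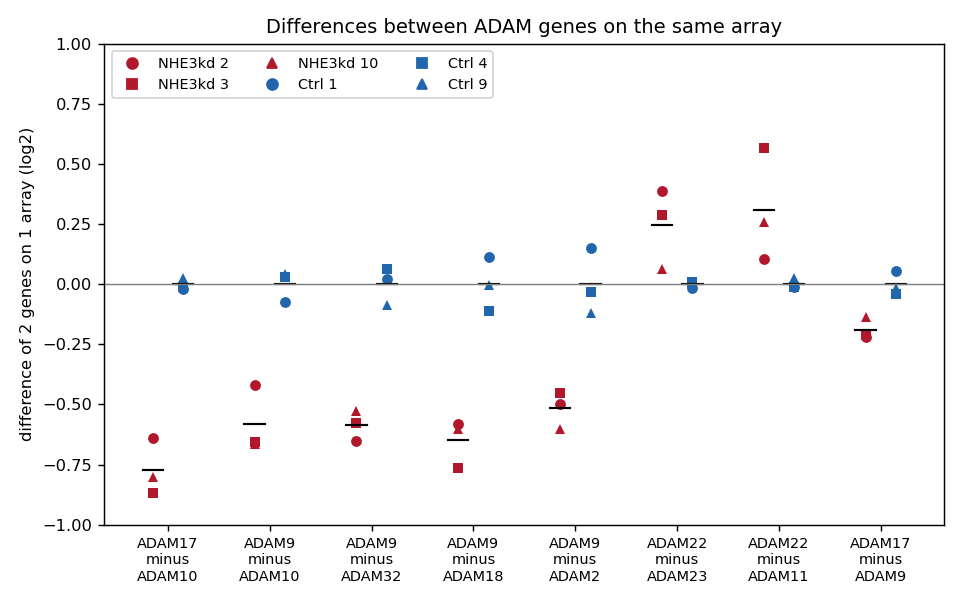
Difference between a pair of ADAM genes on the same array (vertical axis, log2), with NHE3kd arrays in red left of Ctrl arrays in blue, and bars at the group means. ADAM17 minus ADAM10 averaged -0.77 in NHE3kd cells and lay within 0.027 of 0 in Ctrl cells, and ADAM9 minus each of ADAM10, ADAM32, ADAM18 and ADAM2 averaged between -0.65 and -0.52 in NHE3kd cells.

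The 5 ADAMTS-like genes had a median of -0.16, with 4 of 5 fold changes below 0, where 7490 of all 14884 named genes were below 0. None passed in limma, 2 had an unadjusted p under 0.05 (32.5% of all named genes did), and 0 passed under the unmoderated and Welch tests. These counts were too small to tell the 5 genes from named genes at large. ADAMTSL5, which binds fibrillin and heparin, had -0.28, -0.37 and -0.063 on the NHE3kd arrays against 0.057, -0.040 and -0.017 on the Ctrl arrays. The groups did not overlap, with NHE3kd 10 close to the Ctrl arrays, and the fold change of -0.24 ± 0.086 did not pass (adjusted p 0.183). Without NHE3kd 10 it passed, at -0.33 with an adjusted p of 0.0458. ADAMTSL4, mutated in inherited lens dislocation, had -0.34, -0.22 and -0.10 on the NHE3kd arrays against 0.0043, -0.12 and 0.12 on the Ctrl arrays, and the overlap was between NHE3kd 10 and Ctrl 4 (fold change -0.22, adjusted p 0.226). ADAMTSL2, a fibrillin-binding protein mutated in geleophysic dysplasia, was at -0.16 (adjusted p 0.468), and ADAMTSL3 and ADAMTSL1 were at -0.029 and 0.023.

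COL26A1, encoding a collagen first found in the testis and ovary of the mouse, was the only collagen with a named probe set. It had -0.30, -0.23 and -0.28 on the NHE3kd arrays, against -0.22, 0.14 and 0.073 on the Ctrl arrays. The NHE3kd arrays were close together and Ctrl 1 lay just above them, so the groups were apart by less than the spread within the NHE3kd arrays. The fold change of -0.27 ± 0.098 did not pass (adjusted p 0.186). Without Ctrl 1 it was -0.38 and passed, with an adjusted p of 0.0199, so that this 1 control array decided the call.

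The genes that mature, carry or inhibit ADAM proteases were called in both directions. Of 20 such genes, all measured, 3 were higher, 3 lower and 14 did not pass, with a median of -0.12 (among all named genes 9.96% were higher and 4.51% lower). RECK, a membrane-anchored inhibitor of metalloproteases including ADAM10, had 0.68, 0.73 and 0.90 on the NHE3kd arrays against -0.030, -0.027 and 0.057 on the Ctrl arrays (log2 fold change 0.77 ± 0.068, adjusted p 0.00467), a clear separation. TSPAN14, a tetraspanin that escorts ADAM10 to the cell surface, was higher by 0.62 (adjusted p 0.0104), and PCSK5, a convertase of the furin family, which removes the prodomains of many secreted and membrane proteins, by 0.74 (adjusted p 0.0216). The other listed tetraspanins did not pass, with TSPAN15 and TSPAN10 at 0.25 and 0.069, and TSPAN33, TSPAN5 and TSPAN17 at -0.059, -0.11 and -0.54. Nor did the other listed convertases FURIN, PCSK7 and PCSK6, at -0.30, -0.14 and -0.047. TIMP2, a metalloprotease inhibitor, had a fold change of -0.52 (adjusted p 0.0359). On the ADAM17 side, RHBDF1 (iRhom1), which carries ADAM17 out of the endoplasmic reticulum, had -0.40 (adjusted p 0.0424), and FRMD8, which stabilises the iRhom and ADAM17 complex at the surface, had -0.34 (adjusted p 0.0286). RHBDF2 (iRhom2) was at -0.20 and did not pass (adjusted p 0.471), and TIMP3, the TIMP best known to inhibit ADAM17, was at -0.28 (adjusted p 0.0636), while the tetraspanin TSPAN17 had the lowest value of the list, -0.54 (adjusted p 0.081). RECK kept its call without each array. TSPAN14 lost it without NHE3kd 3 (adjusted p 0.0501). PCSK5 lost it in every such fit but the one without Ctrl 1 (adjusted p up to 0.0791), FRMD8 in every one but that without NHE3kd 2 (0.0968), TIMP2 in all but those without Ctrl 1 or Ctrl 9 (0.129), and RHBDF1 in all but those without Ctrl 9 or NHE3kd 10 (0.145).

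Of 28 listed genes whose proteins are cut by ADAM proteases 22 were measured, and 5 of these passed, each lower in NHE3kd cells, where 4.51% of all named genes were lower. The other 17 did not pass, and the median of the 22 was -0.26. Because this list, too, was drawn up with earlier results known, the count is no test of ADAM substrates as a group. The genes of the ADAM17 substrates EREG and HBEGF, ligands of the EGF receptor, were lower by 2.21-fold and 1.43-fold. EREG had -1.15, -1.07 and -1.21 on the NHE3kd arrays against 0.22, -0.036 and -0.19 on the Ctrl arrays (log2 fold change -1.14 ± 0.11, adjusted p 0.00556), and HBEGF had -0.72, -0.37 and -0.45 against 0.021, 0.11 and -0.13 on the Ctrl arrays (-0.51 ± 0.11, adjusted p 0.0471). DLL4, a Notch ligand, had -1.11, -1.33 and -1.10 on the NHE3kd arrays against -0.11, 0.20 and -0.094 on the Ctrl arrays (-1.18 ± 0.11, adjusted p 0.00503). The adhesion molecules CD44 and L1CAM, both cut by ADAM10, were at -1.01 and -0.47 (adjusted p 0.00409 and 0.0221). TNF and IL6R, the classical ADAM17 substrates, were at -0.62 and -0.91 and did not pass (adjusted p 0.062 and 0.0658), and the Notch ligand JAG1 was at 0.71 (adjusted p 0.0667). EREG, DLL4 and CD44 kept the call without each array. L1CAM kept it without Ctrl 9 or NHE3kd 10 and lost it without any other array (adjusted p up to 0.0813), and HBEGF lost it without any 1 array (0.057 to 0.146).

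**Figure D4:**
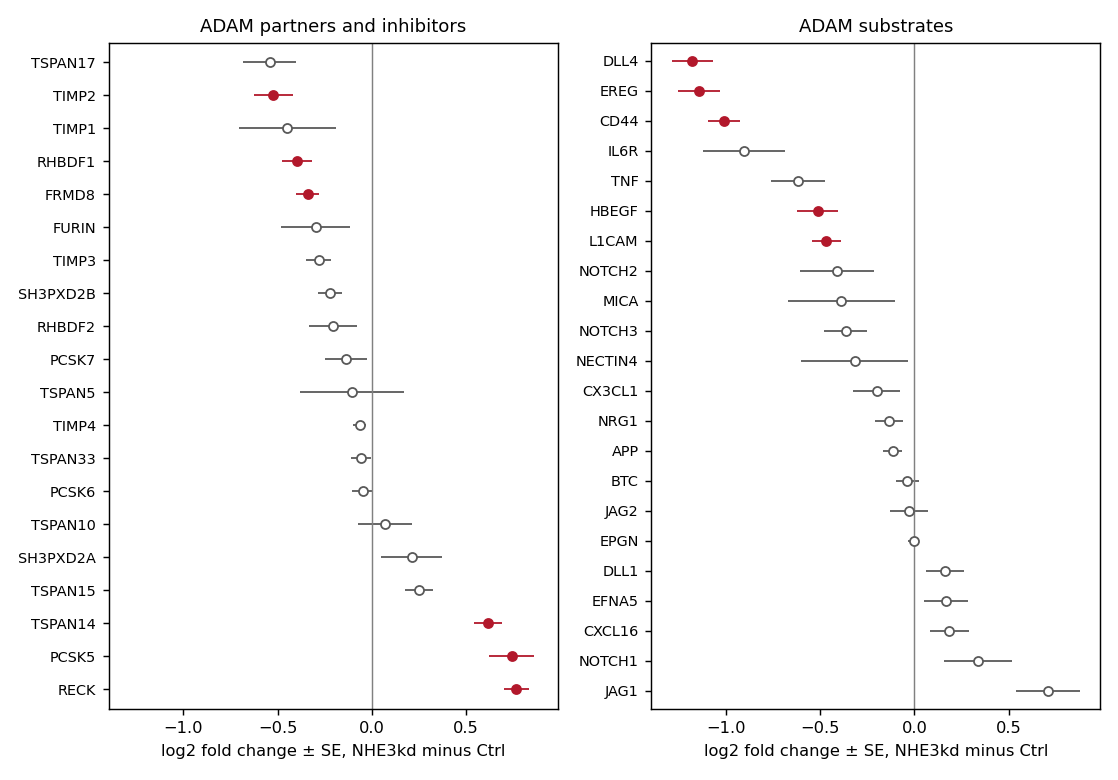
Log2 fold change of NHE3kd minus Ctrl (horizontal axis) for the 20 ADAM partners and inhibitors (left) and the 22 measured ADAM substrates (right), with bars of 1 standard error and filled red circles for genes past the test. Partners lie on both sides of 0, from -0.54 to 0.77, and the 5 called substrates lie below 0. Both lists were drawn up with earlier results of these data known.

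For the other collagens and the laminins, which had no named probe set, genes that make, process and bind them were taken. Of 24 listed genes of collagen hydroxylation, folding and export 10 were measured. Of these 1 was higher, with a median of 0.045 (9.96% of all named genes were higher). This was P3H2, a prolyl 3-hydroxylase of basement membrane collagens, with 0.50, 0.80 and 0.73 on the NHE3kd arrays against 0.13, -0.11 and -0.019 on the Ctrl arrays (0.67 ± 0.10, adjusted p 0.0178). Of 11 listed genes of procollagen processing and cross-linking 10 were measured and 1 was lower (4.51% of all named genes were lower). This was LOXL2, a lysyl oxidase that cross-links collagen IV (-0.93 ± 0.19, adjusted p 0.0407). BMP1, the procollagen C-proteinase, was at -0.29 and did not pass (adjusted p 0.0579). P3H2 lost its call without Ctrl 4, NHE3kd 3 or NHE3kd 10 (adjusted p up to 0.0663), and LOXL2 without any 1 array (0.0529 to 0.118).

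Of 22 listed receptors for collagens and laminins 10 were measured, with no integrin among them, and their median was -0.13. Among all named genes 4.51% were lower and 14.5% called either way. The 3 receptors that passed were lower. Besides CD44 these were the collagen receptor DDR1 at -0.73 (adjusted p 0.0128) and the heparan sulfate proteoglycan SDC4 at -0.86 (adjusted p 0.0177), of which DDR1 missed the threshold without Ctrl 4 (0.0535) and SDC4 without Ctrl 1 or NHE3kd 10 (up to 0.0608). Of 19 other listed basement membrane and hemidesmosome genes 16 were measured. The 2 that passed were lower, with a median of -0.058 over the 16 (again beside 4.51% lower and 14.5% called). These were FRAS1 and FREM2, which encode partners in 1 extracellular complex beneath epithelia that is lost in Fraser syndrome. FRAS1 had -1.84, -1.75 and -1.32 on the NHE3kd arrays against 0.082, -0.15 and 0.063 on the Ctrl arrays (-1.64 ± 0.15, adjusted p 0.00503). FREM2 had -0.84, -1.08 and -0.86 on the NHE3kd arrays against -0.086, 0.091 and -0.0050 on the Ctrl arrays (-0.93 ± 0.083, adjusted p 0.0048). The groups were far apart for both genes, and both calls held without each array. Of the 16 fold changes 12 were below 0 and 4 above. The largest above 0 was that of NID1 at 0.73, which did not pass (adjusted p 0.0934).

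Of 21 listed matrix metalloproteases and other collagen-degrading enzymes 17 were measured, and the 4 that passed were lower. The median of the 17 was -0.037 and the median size of change 0.086, where 4.51% of all named genes were lower and 14.5% were called. The interstitial collagenase MMP1 and the stromelysin MMP10 changed most (-2.57 and -3.06, adjusted p 0.00346 and 0.0057), while the other 2, MMP28 and the lysosomal protease CTSB, were at -0.29 and -0.22 (adjusted p 0.00848 and 0.028). Of 19 listed ADAMTS substrates and microfibril genes 16 were measured and 2 were lower, with a median of -0.15, where 14.5% of all named genes were called. These were FN1, encoding fibronectin (-2.64, adjusted p 0.0127), and POFUT2, the enzyme that adds fucose to thrombospondin repeats of ADAMTS and ADAMTS-like proteins (-0.33, adjusted p 0.0309). Of 21 listed genes of the TGF-beta pathway and its matrix targets 12 were measured. Of these 1 was higher and 1 lower, beside 9.96% higher and 4.51% lower among all named genes. SMAD4 was the higher (0.86, adjusted p 0.00614) and SNAI1, a repressor of epithelial genes, the lower (-1.29, adjusted p 0.0422). Among these genes the calls of CTSB were lost without any 1 array (0.0537 to 0.103), of POFUT2 without any but NHE3kd 10 (up to 0.116), of SNAI1 without any but NHE3kd 2 (up to 0.139), and of FN1 without Ctrl 4 or NHE3kd 3 (up to 0.0556).

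Markers of fibroblasts and smooth muscle, of endothelium and of immune cells were set beside these results, although the arrays hold a cultured adenocarcinoma line. Among all named genes 14.5% were called, 9.96% were called higher, and 32.5% had an unadjusted p under 0.05. Of 15 markers of fibroblasts and smooth muscle 11 were measured, and none passed in limma (2 at an unadjusted p under 0.05), with a median of 0.019 and the largest change at PRRX1 (0.45, adjusted p 0.0766). Of 7 endothelial markers 4 were measured and none passed (0 at an unadjusted p under 0.05). Of 7 immune markers 3 were measured, of which LYZ, encoding lysozyme, was higher (0.92, adjusted p 0.0232), CD14 was at 0.14 (adjusted p 0.334) and CSF1R at -0.21 (adjusted p 0.199). LYZ kept its call without Ctrl 1 or Ctrl 9 and lost it without any other array (adjusted p up to 0.0894). Because the values are differences from the Ctrl mean, these lists give changes and not the presence of such cells.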

How the data were processed

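RNA of 6 samples was hybridised to Affymetrix Human Gene 2.0 ST arrays. The authors processed them with the RMA16 algorithm in GeneSpring GX, and the deposited values are log2 values that were centred on the mean of the Ctrl arrays, so they hold differences and no levels (the Ctrl mean of each probe set lay within 1.27e-06 of 0). The direction is NHE3kd minus Ctrl. Array medians lay between -0.0185 and 0.00181. The submitters' processing notes name the build hg19, and the software version is not given there. Scanner files were not used here, so background, saturation and batches were not examined, and the number of arrays limits the precision.

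Probe sets were named through the platform annotation, with symbols updated by RefSeq (GRCh38.p14). Of 48144 probe sets 16098 had 1 gene symbol, 0 had several and 32046 had none. The linear model of limma 3.58.1 (R 4.3.3; lmFit, eBayes, two-sided tests without covariates, 1.61 prior and 4 residual degrees of freedom) was fitted to each of the 48144 probe sets, with a Benjamini-Hochberg threshold of 0.05 across them. Where a gene had more than 1 probe set, the mean of these was tested under the prior variance of that fit, and the adjusted p was read off the curve relating raw to adjusted p in the full table. The methods of the study name a t-test with the same adjustment, and the legend of its topoisomerase panel names a moderated t-test. The unmoderated and Welch forms were run here as alternatives. The code was tested on simulated data.

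The 26 genes and the gene lists were chosen with earlier results of these data known. Named with values were all of the 26 past the test, the 12 with the smallest p, and, in each further list, up to 6 genes past the test with the largest change or the 2 with the smallest p. The other genes of the 26, the genes of further lists that did not pass where others did (among them TNF, IL6R, JAG1, RHBDF2, TIMP3, TSPAN17, BMP1, NID1 and the markers KRT20, TFF3, ESRP1, CLDN7, CD14 and CSF1R), the pairs on the same array and the neighbouring genes were added once values had been seen. Neither p-values over a list nor set tests were computed. Promoter windows come from a RefSeq table (GRCh38.p14), matched by symbol.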

Additional observations from a re-analysis of the deposited data

How the results depend on the processing

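The number called among the 26 genes, 3 in the fit reported, was 1 by an unmoderated t-test, and it was 0 both by Welch's test and on quantile-normalized values. In each of these settings 3 of the 26 had an unadjusted p under 0.05. The ADAM genes called were likewise 1, 0 and 0. The same settings called 430, 2 and 279 of all named genes, against 2154. Quantile normalization gives the centred Ctrl arrays the same spread as the NHE3kd arrays. At an adjusted p under 0.01 the count over all named genes was 636, and with a 1.5-fold change 1059. The gene left with the unmoderated t-test was ADAM9. ADAM9 kept its call in 15 of 17 alternatives, ADAM17 in 14 and ADAM22 in 6. With each array left out in turn the 26 genes gave 2 to 3 calls, the collagen 0 to 1 (1 without Ctrl 1) and the ADAMTS-like genes 0 to 1 (1 without NHE3kd 10), and all named genes 895 to 1918 (895 without NHE3kd 3, 1002 without Ctrl 4 and 1263 without NHE3kd 10).

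Over the further lists, without the marker lists, 25 genes were called, 8 by the unmoderated test, 0 by Welch's, 6 on quantile-normalized values, 10 at an adjusted p under 0.01, and 12 to 31 with 1 array left out (16 without Ctrl 1, 12 without Ctrl 4 and 12 without NHE3kd 3). Among genes not past the test, fold changes near 0 turned sign. ADAM12 was 0.0018 with array weights and 0.0026 with arrays brought to the same median, and with 1 array left out ADAM12 ranged from -0.034 to 0.025, ADAM10 from -0.11 to 0.043, ADAM28 from -0.072 to 0.046, ADAM32 from -0.11 to 0.0014, ADAM20 from -0.066 to 0.084, ADAMTSL3 from -0.085 to 0.020 and ADAM18 from -0.033 to 0.061. No called gene among the 26 turned sign. The cause of these shifts was not tested.

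No paired analysis was possible because the groups share no replicate number. The planned pairs of neighbouring collagen, laminin and ADAMTS genes and the count of laminins called were not run, since none of these genes had a named probe set in the annotation used.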
